A study of Dunaliella tertiolecta UTEX 'LB 999' with 2 samples.

Results

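The 5 transcripts described here belong to central carbon metabolism in Dunaliella tertiolecta, a unicellular green alga of salt water that has no cell wall. They were taken from 234 transcript contigs (assembled transcript sequences) that the authors deposited as 2 lists, 134 higher and 100 lower at 8 h than at 4 h after a rise in light. A contig was included if its symbol was GAP1a, PEPC1 or CAH1, or if its protein name held the words pyruvate kinase, phosphofructokinase, aldolase, enolase, phosphoglycerate, citrate synthase, malate dehydrogenase, isocitrate, fumarase or succinate. The 3 symbols gave 1 contig each, pyruvate kinase and succinate gave 1 each, and the other 8 words gave 0. The members are thus GAP1a, a pyruvate kinase with no symbol, PEPC1, SDH2 and CAH1. All names are those of the best protein hit in Chlamydomonas reinhardtii, a related freshwater alga.

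Both samples were cultures of strain UTEX LB-999, grown at steady state in a chemostat at 25 °C with 0.5 M NaCl under 40 µmol photons m-2 s-1. The light was then raised to 400 µmol photons m-2 s-1, and messenger RNA was sequenced from 1 library at 4 h and 1 library at 8 h. Both groups had therefore received the stronger light, and a culture kept at the weaker light is not analysed here. With 1 library per time point there is no spread between replicates, so each difference below is between these 2 libraries and carries no p-value of its own.

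Photosynthetic cells take up inorganic carbon, fix it in the Calvin cycle and send the resulting sugar phosphates to starch or into glycolysis. Glycolysis ends at pyruvate kinase, which turns phosphoenolpyruvate into pyruvate with a gain of ATP. The TCA cycle in mitochondria oxidises the products further and also supplies carbon skeletons for amino acids. Anaplerotic enzymes refill the cycle as these skeletons are withdrawn, and phosphoenolpyruvate carboxylase is the main one in algae and plants.

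All 5 transcripts were in the higher list, with ratios of 8 h to 4 h between 2.05 and 2.72 and a median of 2.50. Of all listed contigs 57.3% were in that list, where the median ratio was 2.75, above that of the members. Over both lists the median ratio was 2.20. GAP1a, a plastid glyceraldehyde-3-phosphate dehydrogenase, was by far the most abundant member at both times. For GAP1a, pyruvate kinase and PEPC1 the 95% counting interval of the ratio lay above 1. For SDH2 and CAH1 it reached below 1. Among all 234 listed contigs, 28.6% were higher and 23.5% lower with an interval that left out 1. The authors listed contigs only at 2-fold or more with a p under 0.05 in the same contrast, so the sizes of these ratios are a description and have a floor set by that choice.

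Levels are the authors' mean RPKM, which scales reads to contig length and to library size, and can be compared between genes. Reads were worked back from RPKM and contig length. The libraries held 674129 reads at 8 h and 556037 at 4 h, and the listed contigs took 0.731% and 0.707% of them. The intervals are exact, rest on the reads of each contig and cover counting error only. All 5 members had fractional raw read totals, against 31.2% of listed contigs, so some of their reads had been divided with other contigs, and their single values are uncertain to that extent.

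In glycolysis, GAP1a stood at 168.6 RPKM at 4 h (interval 143.1 to 198.3) and at 459 RPKM at 8 h (420 to 501). The libraries' intervals were far apart. The enzyme oxidises glyceraldehyde 3-phosphate, and its description, glyceraldehyde-3-phosphate dehydrogenase of plastid 1, is the name of an Arabidopsis plastid enzyme that works in glycolysis rather than in the Calvin cycle. These levels came from 149.6 reads at 4 h and 494 reads at 8 h, and the ratio was 2.72 (2.26 to 3.28). The contig is 1596 bases long, is the 1 transcript of its locus in the authors' assembly, and matched protein Cre12.g485150.t1.1 with an E value of 9e-173.

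Of the 234 listed contigs GAP1a had the highest RPKM at 8 h and was eighth at 4 h, as its place at the upper end of the scatter of listed contigs shows. HFO26, from the lower list, had 455 RPKM at 8 h, inside the interval of GAP1a (420 to 501). First place at 8 h is therefore not resolved by counting error. It held 10.03% of the reads of all listed contigs at 8 h and 3.81% at 4 h. By ratio it was 73rd of the 134 higher contigs, near the middle, since the median ratio of that list was 2.75. The 3 listed contigs nearest to GAP1a in mean log2 RPKM over both libraries were histone transcripts, and all were in the lower list. HTA24 had 376 RPKM at 4 h and 177.8 at 8 h. HTB2 had 525 and 188.0 RPKM, and HTR41 had 341 and 154.9.

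**Figure D1:**
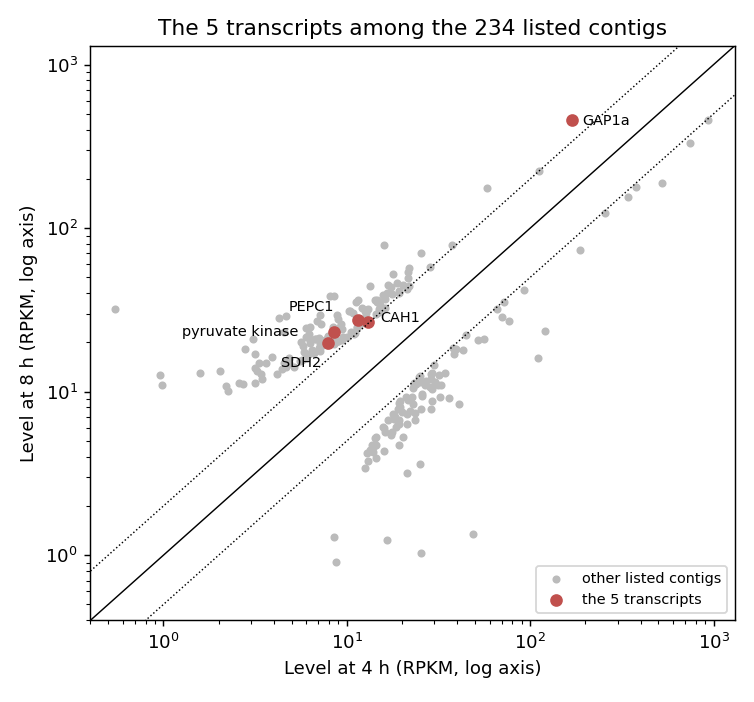
Level at 8 h against level at 4 h (RPKM, log axes), 1 library each, for the 234 listed contigs; red points are the 5 transcripts, the solid line marks equal levels and dotted lines mark 2-fold. GAP1a, at 459 RPKM at 8 h, is the highest point, while the other 4 lie among the many contigs between 19.8 and 27.3 RPKM.

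The pyruvate kinase transcript had 8.53 RPKM at 4 h (4.51 to 13.8) and 23.2 RPKM at 8 h (17.2 to 30.9). The intervals of the libraries did not overlap. Pyruvate kinase is the last step of glycolysis and one of its control points. The levels came from 14.5 and 47.8 reads, and the ratio was 2.72 (1.53 to 5.55). GAP1a had 19.8 times the RPKM of pyruvate kinase at 4 h and at 8 h, against 14.7 and 16.9 times that of PEPC1 and 12.99 and 17.2 times that of CAH1. With 14.5 pyruvate kinase reads at 4 h, this depth does not resolve whether the proportion changed. The contig of 3055 bases is the fourth of 8 transcripts in its locus, so that reads of sister transcripts may be included or missing. No listed contig carried the names of the steps between these enzymes, phosphoglycerate kinase, phosphoglycerate mutase and enolase. Unlisted contigs were not analysed here, and nothing follows for those steps.

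At the branch from glycolysis to the TCA cycle, PEPC1 had 11.4 RPKM at 4 h (6.93 to 17.5) and 27.3 RPKM at 8 h (20.6 to 35.1). Its intervals did not overlap either. PEPC1 is a phosphoenolpyruvate carboxylase, which adds bicarbonate to phosphoenolpyruvate to give oxaloacetate and so draws on the same substrate as pyruvate kinase. On 20.2 and 58.2 reads the ratio was 2.38 (1.42 to 4.20), and 34 of the 134 higher contigs had a lower one. The contig of 3169 bases is the eighth of 10 transcripts in its locus. The symbol and the description of its hit differ, the latter being phosphoenolpyruvate carboxylase 2.

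A contig with no symbol, described as phosphoenolpyruvate carboxylase 4, was listed as higher too. It lies outside the wording used to choose the members but in the list of words for pyruvate and anaplerotic reactions. In Arabidopsis the protein of that name is the bacterial-type form of the enzyme. It had 4.17 RPKM at 4 h and 12.9 RPKM at 8 h, from 4 and 15 reads. The ratio was 3.09 (0.985 to 12.8), so that equal levels lay within counting error. The PEPC1 contig had 2.74 times its RPKM at 4 h and 2.11 times at 8 h. The intervals of the pair overlapped at 4 h (6.93 to 17.5 against 1.14 to 10.7). They also overlapped at 8 h (20.6 to 35.1 against 7.22 to 21.3). The carboxylase 4 contig is transcript 5 of 10 in its locus, so these are levels of single contigs and not of whole genes. The raw total of the carboxylase 4 contig was whole, unlike that of PEPC1, and the best hits were different proteins.

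**Figure D2:**
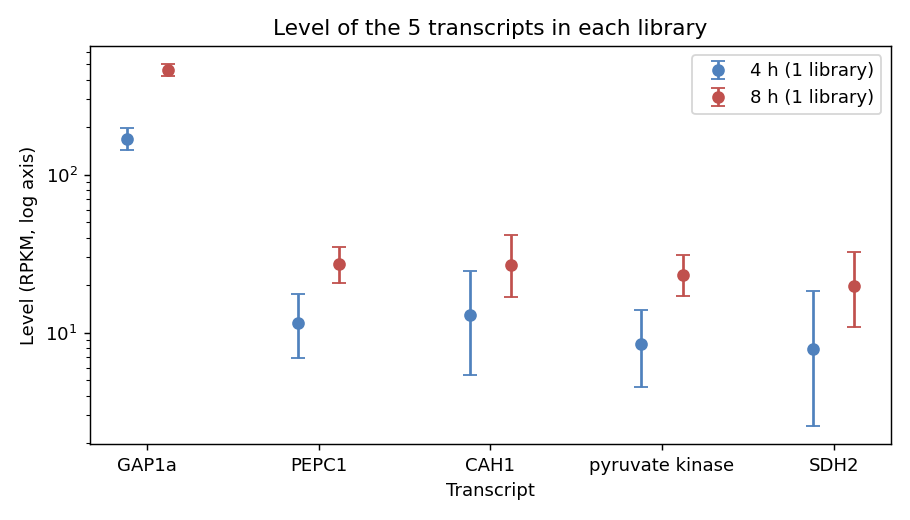
Level (RPKM, log axis) of each of the 5 transcripts in the 4 h library (blue) and the 8 h library (red), with 95% exact Poisson intervals that cover counting error only. The intervals of both libraries are apart for GAP1a, PEPC1 and pyruvate kinase and overlap for CAH1 and SDH2.

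In the TCA cycle, SDH2 had 7.89 RPKM at 4 h (2.56 to 18.4) and 19.8 RPKM at 8 h (10.9 to 32.2). Here the intervals of the libraries overlapped. SDH2 is the iron-sulfur subunit of succinate dehydrogenase, which serves both the TCA cycle and, as complex II, the respiratory chain. The levels rested on 5 reads and 15.2 reads, and the ratio was 2.50 (0.855 to 8.70). A difference between these libraries was thus not detectable at this depth by the counting interval, although the contig was in the authors' list. Its 4 h reads were whole and its 8 h reads departed from a whole number by 0.169 reads, which does not tell how many reads were divided with other contigs. No other contig of the cycle, such as citrate synthase, isocitrate dehydrogenase, fumarase or malate dehydrogenase, was listed by name.

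In inorganic carbon uptake, CAH1 had 12.98 RPKM at 4 h (5.41 to 24.7) and 26.7 RPKM at 8 h (16.8 to 41.4). These intervals overlapped as well. CAH1 in Chlamydomonas reinhardtii is an alpha carbonic anhydrase outside the plasma membrane, which interconverts bicarbonate and CO2 and is part of the carbon concentrating mechanism. From 8.29 and 20.7 reads the ratio was 2.05 (0.921 to 5.65), the lowest of the 5 and close to the lowest in the whole higher list, 2.00. The best hit, Cre04.g223100.t1.1, had an E value of 4e-17, weaker than those of the other 4 members, which ran from 3e-155 to 0. The name CAH1 is the least secure of the 5 for that reason, and the description given with it is alpha carbonic anhydrase 4.

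At 8 h the order of levels was GAP1a, PEPC1, CAH1, pyruvate kinase and SDH2. At 4 h CAH1 stood above PEPC1, and the rest of the order was the same. The counting intervals of the 4 members below GAP1a overlapped in each library. Overlap alone does not decide whether neighbours in this order differ, and the members were not tested against each other. The highest of the 4 was 1.38 times the lowest at 8 h and 1.64 times at 4 h. GAP1a was 16.9 times the next member at 8 h and 12.99 times at 4 h. Added up, the 5 transcripts had 209 RPKM at 4 h and 556 RPKM at 8 h, a ratio of 2.66, of which GAP1a supplied 80.5% and 82.6%. Without GAP1a the sums were 40.8 and 96.9 RPKM, and the ratio was 2.37. All 5 members were above the median level of listed contigs at 8 h, 18.2 RPKM, and 1 was above the median at 4 h, 14.5 RPKM. Every contig of the higher list differs in that direction by selection, so this shift is not a result on the members.

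**Figure D3:**
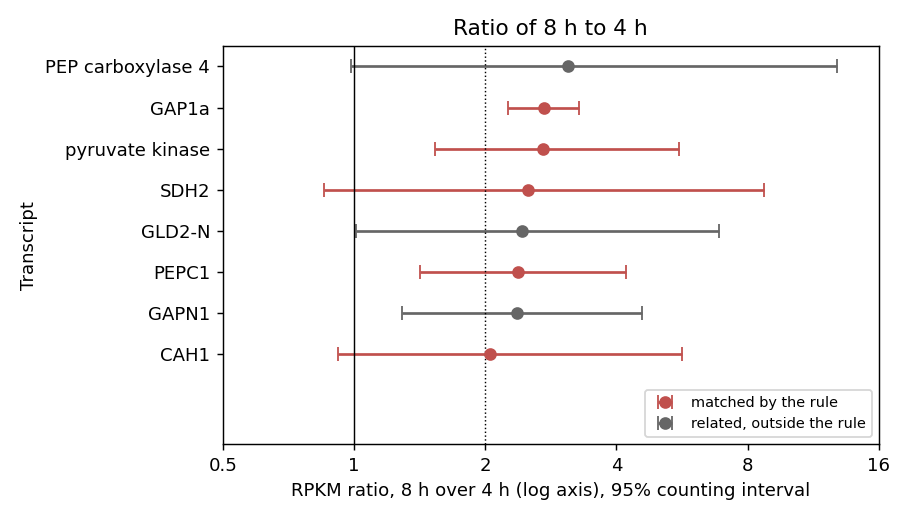
Ratio of 8 h to 4 h (log axis) with 95% exact counting intervals for the 5 transcripts (red) and for 3 related contigs outside the wording (grey); the solid line marks equal levels and the dotted line 2-fold. The interval of GAP1a, 2.26 to 3.28, is the narrowest, and those of SDH2, CAH1 and PEP carboxylase 4 cross equal levels.

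The intervals of the 5 ratios all overlapped, and whether the ratios differ between members was not tested. The members differed far more in precision than in ratio. In the authors' deposited table all 5 had a p under 0.05, and 1 had an FDR (false discovery rate) under 0.05, while of all listed contigs 18.4% were higher and 14.1% lower under that limit. In the authors' deposited table the FDR of GAP1a was 1.3e-26. The authors' deposited table gave pyruvate kinase 0.102, PEPC1 0.109, SDH2 0.181 and CAH1 0.197. These FDR values were not in the order of the read support of each contig. In the authors' deposited table GLD2-N, with 21.2 and 7.18 reads, had an FDR of 0.0282, below that of PEPC1 with 58.2 and 20.2 reads, at similar ratios of 2.43 and 2.38. The 784 bases of GLD2-N give it a higher RPKM per read than the 3169 bases of PEPC1. Whether contig length bears on the FDR was not tested.

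Other genes of the same pathways were looked for with 12 word lists. The 6 lists of central carbon metabolism (Calvin cycle, glycolysis, TCA cycle, pyruvate and anaplerotic reactions, inorganic carbon uptake and the pentose phosphate pathway) together held 7 contigs, of which 7 were higher and 0 lower, and 4 had an interval that left out 1. Over all listed contigs 57.3% were higher, and 28.6% were higher with such an interval; the 5 members in this count were chosen with results known, so it is a description. The 7 were the 5 members, PEP carboxylase 4 and GLD2-N. The Calvin cycle list held GAP1a alone, through the word glyceraldehyde. No listed contig named Rubisco, phosphoribulokinase, sedoheptulose bisphosphatase or another enzyme that belongs to that cycle only. Carbon fixation in the strict sense is therefore not represented among the members, and CAH1 is the one closest to it.

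GLD2-N, a glucose-6-phosphate dehydrogenase, had 16.5 RPKM at 4 h and 40.1 RPKM at 8 h. The enzyme opens the oxidative pentose phosphate pathway, which makes NADPH from glucose 6-phosphate. Its ratio was 2.43 (1.01 to 6.89), just clear of equal levels, on 7.18 reads at 4 h and 21.2 at 8 h, rounded for the interval. The contig is transcript 2 of 4 in its locus and had a fractional raw total, so this narrow margin is uncertain. GAPN1 was missed by the word lists, because its description is aldehyde dehydrogenase 11A3, and was picked after its values were seen. In Arabidopsis that protein is the non-phosphorylating glyceraldehyde-3-phosphate dehydrogenase, which bypasses the ATP-yielding step of glycolysis and makes NADPH. It had 12.8 RPKM at 4 h and 30.2 RPKM at 8 h from 15 and 43 whole reads, and a ratio of 2.36 (1.29 to 4.58). Its place in the higher list was known when it was picked, and ratios of 2 or more are set by that list. Its level was far below that of GAP1a. A pfkB-like carbohydrate kinase contig, also picked afterwards, belongs to a family of sugar and nucleoside kinases, and its description does not give its substrate. It had 6.27 and 20.7 RPKM, a ratio of 3.30 (1.06 to 13.6).

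The lists for routes that leave central carbon metabolism held contigs of both directions. For starch and sugar, 2 were higher and 2 lower, and 1 of each had an interval that left out 1. The words missed a further lower contig, the large subunit of ADP-glucose pyrophosphorylase, which was picked after its values were seen. That contig was 9.70-fold lower (1.30 to 430) on 1 read against 8. The higher ones were SBE2, which branches starch, with under 1 read at 4 h and 24.7 reads at 8 h, and UAP2, a UDP-sugar pyrophosphorylase with a ratio of 2.80 (0.993 to 9.72). The lower ones were starch synthase 3, with 23.3 RPKM at 4 h and 11.3 RPKM at 8 h (ratio 0.485, 0.313 to 0.756), and a dikinase of starch breakdown, with 25.8 and 9.67 RPKM (ratio 0.375, 0.102 to 1.17). For carbon to amino acids, 2 were higher and 2 lower. AAT2, an alanine aminotransferase that joins pyruvate to amino acid metabolism, had 17.3 RPKM at 4 h and 43.9 RPKM at 8 h, a ratio of 2.53 (1.36 to 5.01). OASTL1, which makes cysteine, had a ratio of 2.54 (1.35 to 4.78). The lower ones were a D-alanine ligase contig, with a ratio of 0.328 (0.0271 to 1.54), and ZNJ1, a DnaJ protein matched by the word cysteine, with 0.444 (0.203 to 0.949).

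For sugar and organic acid transport, 3 were higher and 1 lower. CGL51, a nucleotide-sugar transporter, had a ratio of 2.57 (1.18 to 6.18), and MITC18, a mitochondrial substrate carrier, 2.20 (0.818 to 6.86). The other matches were an oxygenase that uses 2-oxoglutarate, which was higher, and a dicarboxylate diiron protein, which was lower. Neither of these is a transporter. The words for glycerol, the main osmolyte of Dunaliella, matched 1 higher and 1 lower contig. Both matched through the name of a glycolipid in their description and not through glycerol itself. The lists for photorespiration and for redox partners such as thioredoxin held 0 contigs.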

How the data were processed

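The deposited data are 2 lists of contigs. Per the submitters' processing notes they were analysed with Partek. The sources used here give no aligner, assembler or reference. Per the file headers, the authors' means are RPKM, and the deposited tables also give the ratio, its natural log, a p-value, a step-up FDR, a signed fold score in the lower list, and a raw total that is an estimated count over all libraries of their model. The mean columns, annotation and Bacillus_subtilis, were taken as 8 h and 4 h because the contrast reads 8 vs 4 and the ratio is the first over the second.

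Reads were computed as RPKM times length over 1 constant per library, found where that library held the most reads. Ratios are of the authors' RPKM. Their 95% intervals are Clopper-Pearson intervals, built on the share of rounded reads from the 8 h library, and those of levels are exact Poisson intervals. Raw totals within 0.001 of a whole number counted as whole. Intervals and read recovery were checked on simulated data. No test was run. The members and word lists were chosen with earlier results of these data known. Every member was to be named, every contig of a word list of up to 6 contigs could be, and the 3 contigs nearest to GAP1a in level were. Alternatives were pseudocounts of 1 and 0.1 RPKM, other scalings, a 4-fold limit, an FDR under 0.05, 10 reads, intervals leaving out 1, an E value under 1e-20, whole totals and wording read by hand. No sequences of these contigs were used here. Software was scipy 1.17.1, numpy 2.4.6, matplotlib 3.10.9 and pandas 2.3.3 under Python 3.11.15.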

Additional observations from a re-analysis of the deposited data

Results flagged for a closer look

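The authors' raw totals held reads of 3 members that came from neither the 4 h nor the 8 h library, above the 3 reads that a count of 0 allows. For PEPC1 these were 18.0 reads, 18.7% of its raw total. For CAH1 they were 7.40 reads, or 20.3%, and for pyruvate kinase 4.00 reads, or 6.04%. GAP1a and SDH2 were at that limit, with 0.464% and 12.9% of their totals. Nothing in the labels used here describes the libraries these reads came from.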

How the results depend on the processing

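All 5 ratios stayed above 1 under every alternative tried, but none of these could have reversed a ratio of 2 or more. A pseudocount cannot take a ratio from above 1 to below it, and leaving out scaling only raises ratios. Listed contigs took similar shares of both libraries, 0.731% at 8 h and 0.707% at 4 h, so scaling to their reads moved ratios little. With pseudocounts the 5 ratios ran from 1.98 to 2.72, and scaled to the reads of all listed contigs from 1.99 to 2.63. Without scaling, the ratio of reads of GAP1a was 3.30, past its counting interval, because the 8 h library is the larger. The count of 5 higher members was 0 at 4-fold, 1 at an FDR under 0.05, 3 with intervals that left out 1 and 0 with whole raw totals. It was 5 at 10 reads, 4 at an E value under 1e-20 and 5 with the wording read by hand. With the 3 related contigs added after the data were seen (PEP carboxylase 4, GLD2-N and GAPN1) it was 8. The count of lower members was 0 throughout. The limits only remove members, all of them higher, and the 3 added contigs were known to be higher, so these settings could not have raised it. No sum over members with whole raw totals could be given, since none had one. No paired analysis was possible because each time point had 1 library. Depth limits SDH2 and CAH1 most, with 5 and 8.29 reads at 4 h.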

Other observations

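In the 23 contigs with exactly 1 read outside the contrast, RPKM times length clustered at 2 values, with 7 contigs at one and 16 at the other, as 2 further libraries of 241502 and 178809 reads would give. Dividing the outside reads of each contig between these 2 libraries gave whole reads in both, within 0.02 reads, for 160 of the 161 contigs with whole raw totals, and within 0.05 reads for all 161. Their time, treatment and strain are not known here, so their values are given one by one and belong to no group. This division was devised after the values were seen.

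GAP1a had 3.01 reads in the larger further library, 7.81 RPKM (interval 1.61 to 22.7), and 0 reads in the smaller one, where 3 reads, the limit that a count of 0 allows, would be 10.5 RPKM. At its 4 h level it would have had 65.0 and 48.1 reads there. Of the 41 contigs with over 20 reads at 4 h, GAP1a had the lowest further level relative to its own lower time point, 0.0463, and the next lowest had 0.142. GAP1a was therefore far below its 4 h level of 168.6 RPKM in both further libraries. It was detected on few reads in the larger one and not detected in the smaller one. Listed contigs as a whole were low in the larger one, which gave them 0.173% of its reads, against 0.656% in the smaller one. Their median was 3.46 RPKM in the larger library, below the 7.81 RPKM of GAP1a there. It was 9.46 RPKM in the smaller library and 14.5 RPKM at 4 h. For comparison, 44.4% of all listed contigs were below both time points in both further libraries.

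PEPC1 had 4.01 reads (5.23 RPKM, 1.42 to 13.4) in the larger library and 13.99 reads (24.7 RPKM, 13.5 to 41.5) in the smaller one, the latter close to its 8 h level of 27.3 RPKM. PEP carboxylase 4 had 3 reads (7.21 RPKM, 1.49 to 21.0) and 11 reads (35.6 RPKM, 17.8 to 63.8). In the smaller library it was above its 8 h level of 12.9 RPKM, with an interval that did not hold that value, which itself rests on 15 reads.

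Pyruvate kinase had 0 reads in the larger library and 4 in the smaller one (7.32 RPKM, 2.00 to 18.7). SDH2 had 0 and 3 reads (14.7 RPKM in the smaller, 3.04 to 43.0). CAH1 had 2.44 reads (8.78 RPKM, 0.873 to 26.04) and 4.96 reads (24.1 RPKM, 7.90 to 56.8). In the larger library all 5 members were below both time points, and in the smaller one 3 lay between them and 2 below. Of all 234 listed contigs, 3 were above both time points in the larger library and 31 in the smaller one. These positions are therefore not read as a trait of the members. For the 4 members other than GAP1a, the interval in each further library overlapped that of the 4 h library. Overlap alone does not decide whether the levels differ, and ratio intervals were not computed for these libraries. At its 4 h level pyruvate kinase would have had 6.29 reads in the larger library. That is above the 3 reads that a count of 0 allows, so its level there was below its 4 h level by this limit. SDH2, also with 0 reads there, would have had 2.17, which is under the limit.

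The large subunit of ADP-glucose pyrophosphorylase, which commits carbon to starch, was listed as lower at 8 h on 1 read against 8. It had 0 reads in the larger further library and 7 in the smaller one (23.9 RPKM, 9.60 to 49.2). GAPN1 had 3 and 2 reads there, 5.88 and 5.29 RPKM.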
